A study of Homo sapiens with 6 samples.

Results

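The receptors of the EGF family, their ligands and the receptor inhibitor ERRFI1 were examined in the established line MIA PaCa-2, grown from a human pancreatic carcinoma, with and without recombinant human cytoglobin (rhCYGB). The 10 genes were taken by name from the 35993 genes of the deposited table: the receptors EGFR, ERBB2 and ERBB3, the ligands AREG, EREG, HBEGF, TGFA, BTC and NRG1, and ERRFI1. Of these, 8 were among the 14728 genes with enough reads for a test, and TGFA and NRG1 were not. The data are RNA-seq read counts from 3 untreated libraries and 3 libraries of cells given 4 µM rhCYGB for 48 h in low-serum medium. The rhCYGB was a His-tagged protein made by the authors in E. coli, and the labels do not say what, if anything, the untreated cells were given in its place. One cell line was used, and the labels do not say whether the 3 libraries of a group came from separate cultures, so that the tests measure the spread between these libraries.

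Receptors of this family are tyrosine kinases of the cell surface that work in pairs. Ligands are made as membrane-bound precursors and are cut free by ADAM proteases, after which they bind EGFR, or in the case of NRG1 ERBB3, and bring receptors together. ERBB2 has no known ligand of its own and is the favoured partner of the others, while ERBB3 has a weak kinase and recruits PI3K. The bound receptor activates the RAS-ERK and PI3K-AKT branches, and ERRFI1 (also called MIG6), whose transcription rises with receptor signalling, binds the kinase domain and blocks it. In pancreatic ductal cancer EGFR and its ligands AREG, EREG, HBEGF and TGFA are known growth signals.

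Transcripts of 3 ligands and of the inhibitor were more abundant after rhCYGB, and those of ERBB2 and ERBB3 less abundant. EREG rose 3.38-fold, HBEGF 3.02-fold, AREG 2.32-fold and ERRFI1 3.25-fold, while ERBB2 fell to 0.622 and ERBB3 to 0.459 of the untreated level. EGFR rose 1.18-fold, a change that depended on how libraries were scaled, and BTC did not pass the test. Counted with a 2-fold limit and an adjusted p under 0.05 (edgeR, Benjamini-Hochberg), 4 of the 8 genes tested were higher, where 12.4% of all genes tested were, and 1 was lower, where 14.7% were. By the adjusted p alone 5 were higher beside 39% of all genes, and 2 were lower beside 38.6%. The median log2 fold change of the 8 was 0.72, against -0.0046 over all genes tested. The genes were chosen with earlier results of these data known, so these shares and medians are no test of the family. With library sizes left as total counts, the median over all genes moved to -0.17. The genes changed 2-fold went from 1833 higher and 2165 lower to 1395 higher and 2719 lower. With upper-quartile factors the median was -0.15 with 1448 higher and 2633 lower. With limma on log2(FPKM + 0.1), another test with another filter, 1384 were higher and 2460 lower of 17842 genes tested rather than 14728.

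The start regions of the 4 genes that rose are shown because they moved together and because 2 of them, AREG and EREG, are neighbours on one chromosome. Each is the 250 bases before the annotated RefSeq start (build GRCh38.p14), 5′ to 3′ on the gene's strand, in lower case, with capitals for matches to 6 short motifs sought on both strands: the cAMP response element TGACGTCA, the AP-1 site TGANTCA, the ATF4 composite site TGATGNAA, the TATA box TATAAA, the GC box GGGCGG and the CCAAT box CCAAT. The windows are AREG at chr4:74444886-74445135 (plus strand), EREG at chr4:74364895-74365144 (plus), HBEGF at chr5:140346604-140346853 (minus) and ERRFI1 at chr1:8026310-8026559 (minus).
AREG: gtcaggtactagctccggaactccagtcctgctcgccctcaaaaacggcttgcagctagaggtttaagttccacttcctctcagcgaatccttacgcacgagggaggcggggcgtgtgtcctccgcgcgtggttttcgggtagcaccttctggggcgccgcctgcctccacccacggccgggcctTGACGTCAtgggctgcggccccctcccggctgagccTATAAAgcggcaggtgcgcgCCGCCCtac
EREG: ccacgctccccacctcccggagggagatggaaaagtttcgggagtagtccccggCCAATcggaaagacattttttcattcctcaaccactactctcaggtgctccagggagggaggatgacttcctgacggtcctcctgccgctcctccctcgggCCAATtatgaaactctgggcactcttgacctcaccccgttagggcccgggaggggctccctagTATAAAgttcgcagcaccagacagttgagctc
HBEGF: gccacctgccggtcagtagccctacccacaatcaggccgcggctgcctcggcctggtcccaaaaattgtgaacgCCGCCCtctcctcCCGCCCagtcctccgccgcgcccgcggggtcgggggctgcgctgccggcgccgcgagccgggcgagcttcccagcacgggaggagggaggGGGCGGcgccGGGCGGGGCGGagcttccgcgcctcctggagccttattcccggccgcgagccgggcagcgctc
ERRFI1: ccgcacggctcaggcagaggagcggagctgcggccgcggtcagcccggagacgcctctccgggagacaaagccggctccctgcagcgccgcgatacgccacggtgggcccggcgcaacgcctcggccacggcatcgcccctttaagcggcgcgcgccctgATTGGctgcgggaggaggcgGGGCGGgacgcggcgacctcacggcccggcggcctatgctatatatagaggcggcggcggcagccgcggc
The AREG window held the cAMP response element 65 bases before the start, a motif found in 1.65% of the 35116 windows of the same length. Both AREG and EREG had a TATA box, 29 and 32 bases before the start, which 10.7% of windows have. So did EPGN, a further ligand gene beside them, 29 bases before its start. Of the 2 EGFR windows, the second held 2 TATA boxes and 2 AP-1 matches and the first held neither. HBEGF held 5 GC boxes, of which a pair shared bases, and AREG and ERRFI1 held 1 each, with 42.6% of windows having at least 1. EREG carried 2 CCAAT boxes and ERRFI1 carried 1 (32% of windows). Neither the AP-1 letters (6.57% of windows) nor the ATF4 letters (3.14%) occurred in these 4 windows. A match is a run of letters and not a measured site. RefSeq start windows were found for 8 of the 10 genes, ERBB3 and NRG1 being without one, and EGFR and TGFA had 2 each.

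Levels can be compared between genes only per length, for which the deposited FPKM values (fragments scaled to transcript length and to the mapped fragments of the library) were used. In untreated cells the order was ERRFI1 (256 ± 2.46 FPKM, mean ± SD, n = 3), AREG (81.3 ± 2.54), EREG (58.2 ± 1.9), ERBB2 (26.6 ± 1.07), EGFR (13.3 ± 0.0889), BTC (6.25 ± 0.48), HBEGF (3.52 ± 0.38), ERBB3 (0.6 ± 0.0325) and TGFA (0.014 ± 0.0154). The ranges of neighbours in this order did not overlap down to ERBB3 and TGFA. After rhCYGB the order began with ERRFI1 (742 ± 22.2 FPKM), followed by EREG (176 ± 14.3) and AREG (168 ± 1.67), whose ranges overlapped. ERBB2 (14.7 ± 0.574) and EGFR (14 ± 1.06) overlapped as well, and HBEGF (9.51 ± 0.188) now stood above BTC (5.01 ± 0.431). Among genes with FPKM above 0, mean ERRFI1 was at the 98.9th percentile without and the 99.5th with rhCYGB, AREG at the 96.2nd and 98.4th, and EREG at the 94.6th and 98.4th. ERBB2 went from the 88.1st to the 79.9th percentile and HBEGF from the 55.7th to the 72.4th.

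**Figure D1:**
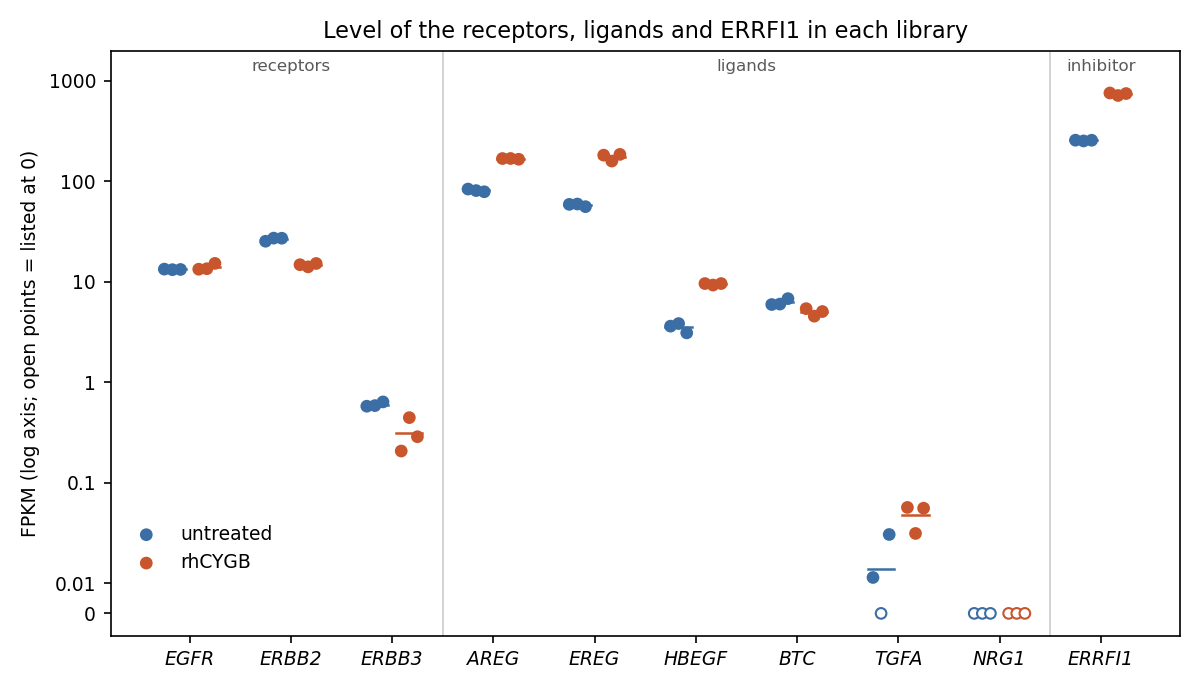
FPKM on a log axis for each of the 10 genes, with 1 point for each of 3 untreated and 3 rhCYGB libraries and a line at the group mean; open points at the foot of the axis are libraries in which a gene is listed at 0. EREG, AREG, HBEGF and ERRFI1 lie higher with rhCYGB in all 3 libraries, ERBB2 and ERBB3 lower, and NRG1 is listed at 0 in all 6.

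Among the receptors, EGFR (gene ID 1956, chromosome 7, 55086710 to 55279321 as listed in the deposited transcript table, whose genome build is not named) binds most ligands of the family. Its counts were 5329, 6291 and 5698 in untreated libraries 1, 2 and 3 and 5858, 5452 and 6505 in rhCYGB libraries 1, 2 and 3. Scaled with edgeR's TMM factors, these were 143, 140.4 and 139.7 CPM (counts relative to the scaled library size) in the untreated libraries and 158, 164 and 177 CPM in the rhCYGB libraries. The scaled values did not overlap, although the spread with rhCYGB (SD 9.56 CPM) was wider than without (SD 1.76 CPM). The log2 fold change was 0.24 (SE 0.043, 95% interval 0.14 to 0.33) and the edgeR adjusted p 0.000144. With total counts the log2 fold change was 0.07 (edgeR adjusted p = 0.161), with upper-quartile factors 0.093 (adjusted p = 0.054), and with limma on log2(FPKM + 1) 0.071 (adjusted p = 0.297). The rise passed the test with TMM factors, DESeq2's size factors and the DESeq2 Wald test and was lost with these others. In FPKM, rhCYGB libraries 1 and 2 (13.4 and 13.5) lay at the untreated values (13.4, 13.2 and 13.3) and library 3 (15.3) above them.

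ERBB2 (gene ID 2064, chromosome 17, 37844337 to 37884915), the partner receptor, had 4755, 6106 and 5457 counts in untreated and 3039, 2688 and 3128 counts in rhCYGB libraries. That was 128, 136 and 134 CPM without and 81.8, 80.8 and 84.9 CPM with rhCYGB, a gap many times the spread within either group. The log2 fold change was -0.68 (SE 0.041, 95% interval -0.77 to -0.6, edgeR adjusted p 5.05e-10), short of 2-fold. Over 16 alternative settings it lay between -0.85 and -0.66 and passed the adjusted p in each. ERBB2 overlaps the neighbouring gene MIEN1 by 163 bases, and MIEN1 was itself lower (log2 fold change -0.36, edgeR adjusted p 1.53e-05). The paper names a stranded library kit (TruSeq Stranded mRNA). Whether the counting used the strand is not stated, so reads in the shared stretch may have been counted for either gene.

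ERBB3 (gene ID 2065, chromosome 12, 56473809 to 56497291), a receptor for NRG1 that recruits PI3K, was scarce. It had 134, 148 and 135 counts in untreated and 53, 56 and 58 counts in rhCYGB libraries, or 3.6, 3.3 and 3.31 CPM against 1.43, 1.68 and 1.57 CPM. No rhCYGB library came near an untreated one. The log2 fold change was -1.12 (SE 0.18, 95% interval -1.5 to -0.75, edgeR adjusted p 3.26e-05), and with both limma fits on FPKM it passed the adjusted p without reaching 2-fold. The FPKM values with rhCYGB, 0.207, 0.445 and 0.287, were more uneven than the counts, and all lay under the lowest untreated value of 0.578.

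The ratio of ERBB2 to EGFR, in FPKM and within each library, was 1.89, 2.06 and 2.05 without rhCYGB and 1.11, 1.04 and 0.998 with it. A ratio within a library does not depend on how libraries were scaled. ERBB2 transcripts per length were thus about double those of EGFR in every untreated library and level with them in every rhCYGB library.

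Of the ligands, EREG (epiregulin; gene ID 2069, chromosome 4, 75230862 to 75254466), which binds EGFR and ERBB4, had the largest log2 fold change of the 4 that could be tested. Its counts were 10967, 13248 and 11218 in untreated and 37439, 30179 and 37299 in rhCYGB libraries. In CPM these were 294, 296 and 275 against 1008, 907 and 1012. The lowest rhCYGB library was thus over 3 times the highest untreated one, and the log2 fold change was 1.76 (SE 0.046, edgeR adjusted p 4.41e-14).

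AREG (amphiregulin; gene ID 374, chromosome 4, 75310853 to 75320722), an EGFR ligand of epithelia and their tumours, had 4167, 4822 and 4221 counts in untreated and 9263, 8559 and 8923 counts in rhCYGB libraries. The scaled values were 112, 108 and 104 CPM without and 249, 257 and 242 CPM with rhCYGB. The groups were far apart, with a log2 fold change of 1.21 (SE 0.041, edgeR adjusted p 6.71e-13). The AREG level has an uncertainty of its own: some older human assemblies carry a second copy of AREG, which could take part of its reads. In the deposited positions the gap from EREG to AREG was 56.39 kb, as in GRCh38, while the gap from AREG to BTC was 349.2 kb against 289.8 kb in GRCh38. The deposited table lists AREG once.

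HBEGF (heparin-binding EGF-like growth factor; gene ID 1839, chromosome 5, 139712428 to 139726188), which binds EGFR and ERBB4, had 344, 437 and 318 counts in untreated and 1007, 898 and 987 counts in rhCYGB libraries. In CPM these were 9.23, 9.75 and 7.8 against 27.1, 27 and 26.8. The rhCYGB libraries were nearly equal and all well above the untreated ones, with a log2 fold change of 1.59 (SE 0.081, edgeR adjusted p 7.03e-11).

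BTC (betacellulin; gene ID 685, chromosome 4, 75669969 to 75719733), a further ligand of EGFR and ERBB4, had 617, 749 and 763 counts in untreated and 620, 484 and 567 counts in rhCYGB libraries. Scaled, the values were 16.6, 16.7 and 18.7 CPM against 16.7, 14.6 and 15.4 CPM, and rhCYGB library 1 lay among the untreated ones. The log2 fold change was -0.16 (SE 0.079, 95% interval -0.32 to 0.012), with an edgeR adjusted p of 0.0835. The result turned on the scaling: with total counts the log2 fold change was -0.32 (adjusted p = 0.00149), with upper-quartile factors -0.3 (adjusted p = 0.00267), and without rhCYGB library 1 it was -0.2 (edgeR adjusted p = 0.0492). Both limma fits on FPKM passed as well, so that BTC was lower past the adjusted p in 5 of the 16 alternatives.

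TGFA (transforming growth factor alpha), long known as an autocrine ligand of EGFR in carcinoma, gave 2, 0 and 6 counts in untreated and 11, 6 and 11 counts in rhCYGB libraries, too few for the test. A count of 0 allows up to 3 counts, or between 0.067 and 0.09 CPM in these libraries, a limit that covers counting error only. When genes with any count were kept, the log2 fold change of TGFA was 1.92 (edgeR adjusted p = 0.0884), and in fits without 1 library it passed only without untreated library 3 (adjusted p = 0.0111) or without rhCYGB library 2 (adjusted p = 0.0325). NRG1 (neuregulin 1), a ligand of ERBB3, had 0 counts in all 6 libraries.

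Of the remaining receptor and ligands of the family, which were listed beside the 10 genes, EPGN (epigen), a weak EGFR ligand, rose from 5.43 ± 0.626 to 12.6 ± 1.52 CPM (log2 fold change 1.21, SE 0.12, edgeR adjusted p 1.74e-07). NRG2 was at 2.22 ± 0.182 and 2.28 ± 0.403 CPM (edgeR adjusted p = 0.861). The receptor ERBB4 had 2 counts in 1 untreated library and 0 in the others, EGF itself had at most 7 counts in any library, and NRG3 and NRG4 had 0 throughout. EPGN, EREG, AREG and BTC lie in this order on chromosome 4 within 545.5 kb of the deposited positions: the first 3 rose and BTC at the far end did not.

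**Figure D2:**
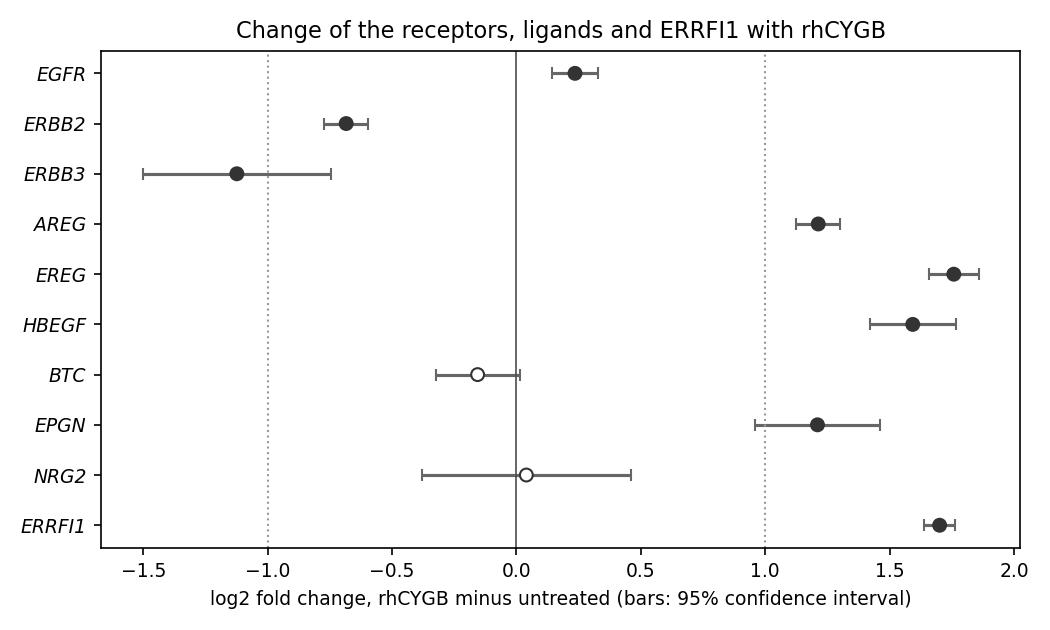
Log2 fold change (rhCYGB minus untreated, 3 libraries each) with the 95% confidence interval of the edgeR fit for the 8 genes tested and for EPGN and NRG2; filled points passed an adjusted p of 0.05 and dotted lines mark 2-fold. EREG, HBEGF, AREG and ERRFI1 lie wholly beyond the upper line, ERBB3 straddles the lower one, and EGFR, ERBB2 and BTC lie between the lines.

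Summed over the 6 ligands among the 10 genes, the FPKM of a library was 153, 151 and 145 without and 367, 343 and 367 with rhCYGB. AREG made up 54.4% ± 0.551 of this sum in untreated libraries (SD, n = 3) and 46.9% ± 2.17 in rhCYGB libraries. EREG went from 39% ± 0.52 to 49% ± 2.15 and BTC from 4.2% ± 0.438 to 1.4% ± 0.0764, while HBEGF stayed small at 2.35% ± 0.206 and 2.65% ± 0.052. The ratio of EREG to AREG was 0.704, 0.735 and 0.711 in the untreated libraries and 1.08, 0.943 and 1.12 in the rhCYGB libraries. EREG was thus the lesser of the pair in every untreated library and near or above AREG in every treated one. These are shares of transcripts and say nothing of the protein released.

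**Figure D3:**
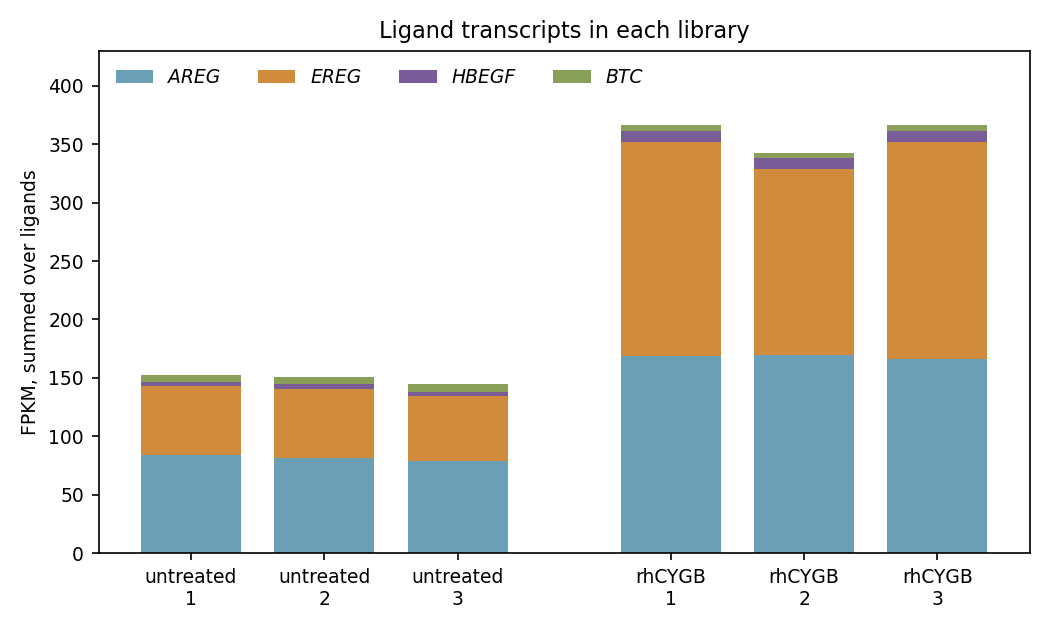
FPKM of AREG, EREG, HBEGF and BTC stacked for each of the 6 libraries; TGFA is too small to draw and NRG1 is at 0. The untreated bars reach 145 to 153 FPKM and the rhCYGB bars 343 to 367 FPKM, with AREG the largest share in each untreated bar.

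ERRFI1 (gene ID 54206, chromosome 1, 8071787 to 8086369), the inhibitor that binds the kinase domains of these receptors, was the most abundant of the 10 genes. Its counts were 32056, 37754 and 34510 in untreated and 104470, 91011 and 101004 in rhCYGB libraries. In CPM these were 860, 842 and 846 against 2812, 2736 and 2740. The libraries of each group lay close together, and the log2 fold change of 1.7 (SE 0.03, edgeR adjusted p 7.04e-16) ranged from 1.53 to 1.71 over the 16 alternatives. Per unit of EGFR, in FPKM, ERRFI1 stood at 19.2, 19.1 and 19.3 in the untreated libraries and at 56.8, 53.1 and 49.1 in the rhCYGB libraries, again with no overlap.

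The deposited transcript counts, in which the authors' assembler shares out the reads of a gene among its annotated transcripts, cover 50 transcripts of the 10 genes, of which 13 could be tested. Of these, 4 were higher by 2-fold and 1 was lower, beside 8.62% and 8.32% of the 32577 transcripts tested. AREG, EREG, HBEGF and ERRFI1 have 1 listed transcript each and were the 4 that rose. ERBB3 variant 1, which held 97.6% of the gene's counts in untreated and 90.4% in rhCYGB libraries, was the transcript that fell (log2 fold change -1.32, edgeR adjusted p 0.0181). That call was lost under 7 of 10 alternatives, among them leaving out any 1 library, with the log2 fold change between -1.41 and -1.27. ERBB2 variant 1 had a log2 fold change of -0.85 (edgeR adjusted p 0.0485), also lost under 7 of 10.

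Within ERBB2 the split varied more between libraries than between groups. Variant 1 held 84.6%, 78.4% and 86.3% of the gene's counts in untreated libraries and 91%, 95.6% and 49.7% in rhCYGB libraries. In rhCYGB library 3, variant 3 was given 809 counts, against at most 189 in any other library, and the non-coding variant 6 was given 645 against 132 and 89 in rhCYGB libraries 1 and 2. Variant 6 did not pass (log2 fold change -0.95, edgeR adjusted p = 0.452) but did so without rhCYGB library 3, at a log2 fold change of -2.27. The gene's total in library 3, 3128 counts, was like those of libraries 1 and 2.

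For EGFR, variant 1 held 99.9% of counts in untreated and 95.7% in rhCYGB libraries, with a log2 fold change of 0.093 (edgeR adjusted p 0.0491, lost under 9 of 10 alternatives). The transcript annotated as EGFRvIII, which lacks part of the extracellular domain, was given 0 counts in the untreated libraries and 0, 206 and 518 counts in rhCYGB libraries 1, 2 and 3. It was under the filter and was not tested, 1 of the 3 rhCYGB libraries had none, and these are the assembler's estimates. Reads across the joins that define it were not analysed here. BTC was split between variant 1 (52% and 48.4% of counts in the 2 groups) and variant 2 (48% and 51.6%), and neither passed the test (edgeR adjusted p of 0.214 and 0.618). All TGFA counts fell on variant 3.

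**Figure D4:**
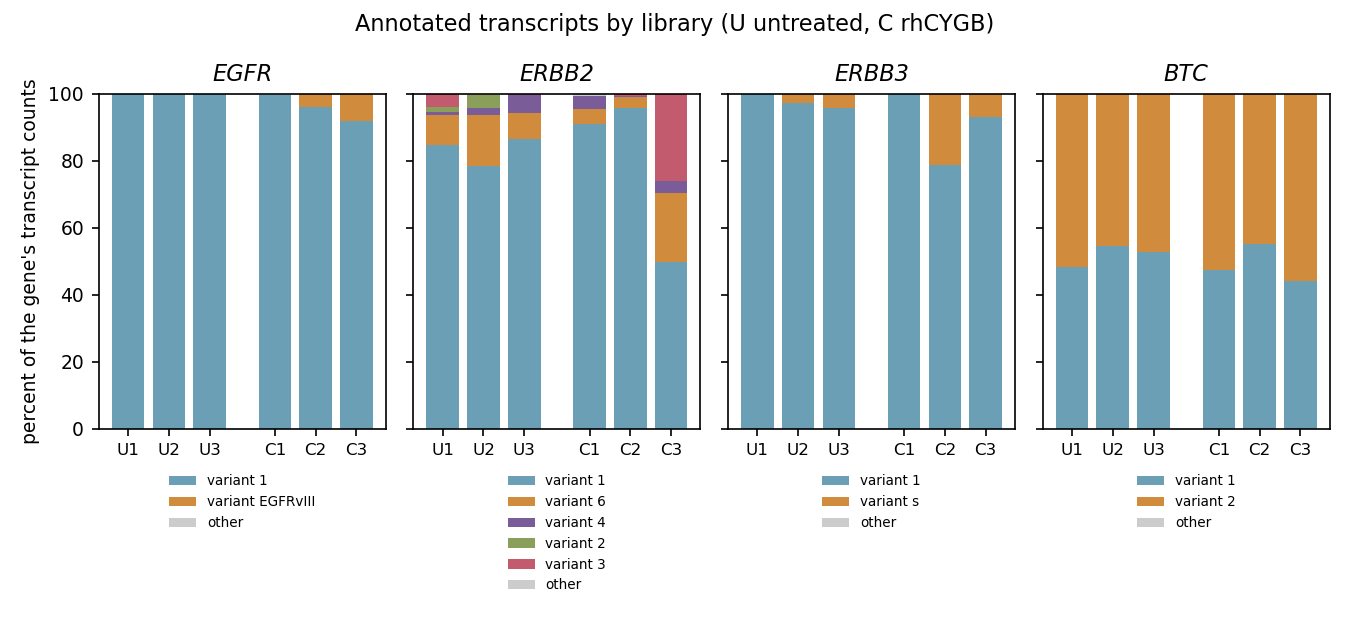
Percent of each gene's transcript counts given to each annotated transcript of EGFR, ERBB2, ERBB3 and BTC, by library (U untreated, C rhCYGB, replicates 1 to 3). The bars of rhCYGB library 3 stand apart for ERBB2, where variant 1 holds 49.7%, and the EGFRvIII share of EGFR appears in rhCYGB libraries 2 and 3 only.

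Genes that act around the receptors were read from lists, beside the 39% of all genes tested that were higher and the 38.6% that were lower by the adjusted p alone, and the 12.4% and 14.7% past 2-fold. These lists too were chosen with earlier results of these data known. Of the genes that cut ligand precursors free or steer that step, 7 of 9 were tested, and 3 rose and 4 fell (median log2 fold change -0.46, against -0.0046 over all genes tested). ADAM17, the main protease for AREG, EREG, HBEGF and TGFA, rose from 57.7 ± 1.18 to 122 ± 3.8 CPM (log2 fold change 1.08, edgeR adjusted p 2.97e-12), and RHBDF1, which carries ADAM17 to the surface, rose from 14.9 ± 0.97 to 53.1 ± 0.652 CPM (log2 fold change 1.84, adjusted p 3.49e-13). ADAM17 was under 2-fold in 4 of the 16 alternatives. The 4 that fell, none to 2-fold, were ADAM10 (log2 fold change -0.69), ADAM9 (-0.455), ADAM15 (-0.89) and FRMD8 (-0.77).

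Of the adaptors at the receptor, 14 of 14 were tested, with 6 higher, 6 lower and 2 not past the test (median 0.047), near the 39% and 38.6% of all genes. GAB2, a scaffold that binds PI3K and SHP2, rose from 3.23 ± 0.25 to 37.9 ± 3.53 CPM (log2 fold change 3.55, edgeR adjusted p 3.67e-14) and was the only one of them past 2-fold in this fit. In the RAS-ERK cascade 9 of 12 rose (39% of all genes), 1 fell (38.6%) and 2 did not pass (median 0.48). Those past 2-fold were the scaffold KSR1, at 10.1 ± 1.39 and 25.4 ± 2.13 CPM, and the kinase BRAF, at 40.3 ± 0.985 and 95.9 ± 1.72 CPM (log2 fold changes 1.34 and 1.25). In the PI3K-AKT branch 4 of 11 rose (39% of all genes), 6 fell (38.6%) and 1 did not pass (median -0.23). The regulatory subunits PIK3R1, from 10.7 ± 0.756 to 1.77 ± 0.196 CPM (log2 fold change -2.6, edgeR adjusted p 7.13e-11), and PIK3R3, from 77.4 ± 9.77 to 27.9 ± 1.32 CPM (log2 fold change -1.47, adjusted p 9.05e-11), were past 2-fold.

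Of 18 genes of receptor uptake, degradation and inhibition, 16 were tested, with 13 higher (39% of all genes), 2 lower (38.6%) and 1 not past the test (median 0.78). Past 2-fold were 4, all higher (12.4% of all genes): EPS15 (log2 fold change 1.28), which gathers receptors into coated pits, the endosome GTPase RAB5A (1.28), the inhibitor SOCS5 (1.08) and RNF41 (1.01), a ubiquitin ligase that targets ERBB3. RNF41 was under 2-fold in 6 of the 16 alternatives and SOCS5 in 4. Of 10 transcripts known to follow ERK activity, 7 were higher (39% of all genes) and 3 lower (38.6%), with a median of 0.37. PHLDA1 rose from 386 ± 5.11 to 1710 ± 49.5 CPM (log2 fold change 2.15, edgeR adjusted p 3.33e-16), SPRY2, a feedback inhibitor, from 182 ± 0.898 to 428 ± 14.4 CPM (1.24), and the phosphatase DUSP4, at low counts, from 1.29 ± 0.346 to 3.22 ± 0.501 CPM (1.32), under 2-fold with both limma fits on FPKM. CCND1, the cyclin of entry into the cell cycle, fell from 164 ± 0.863 to 60.5 ± 1.4 CPM (log2 fold change -1.44, adjusted p 4.97e-14). The other genes that fell, neither to 2-fold, were DUSP6 (log2 fold change -0.33, edgeR adjusted p 0.000885) and EPHA4 (-0.67, adjusted p 5.73e-10). The list thus held changes in both directions.

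**Figure D5:**
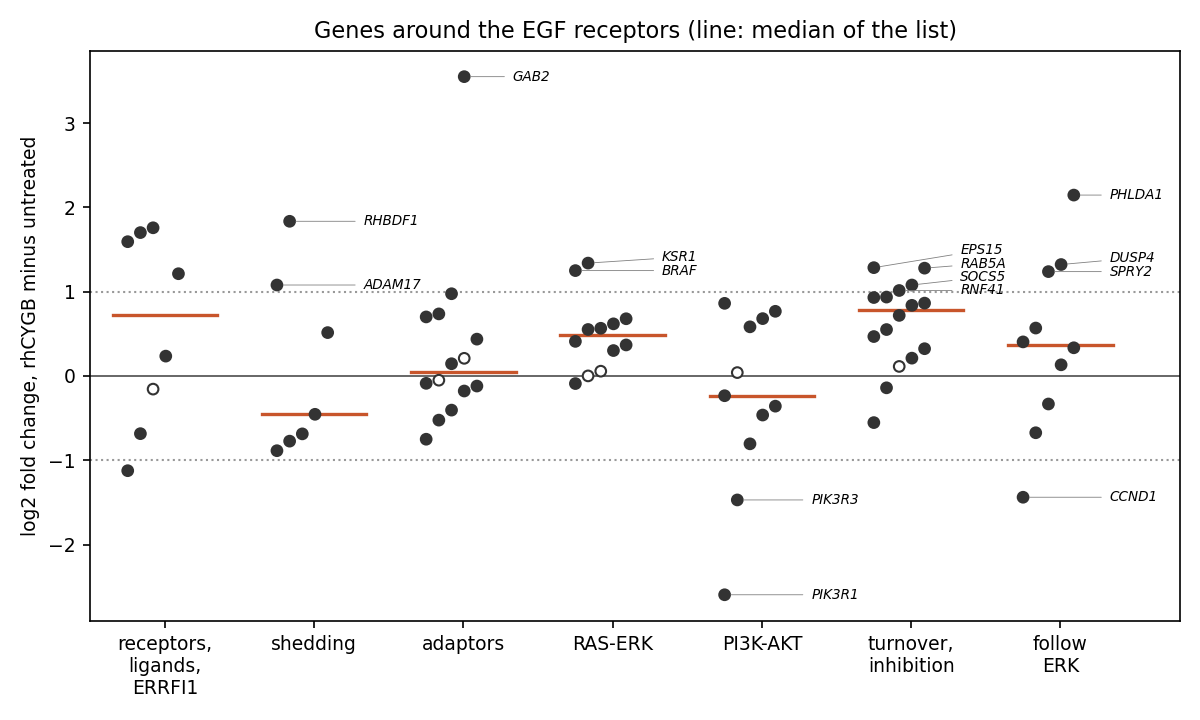
Log2 fold change (rhCYGB minus untreated) of every tested gene among the receptors, ligands and ERRFI1 and in 6 lists of genes around them; filled points passed an adjusted p of 0.05, red lines are list medians, dotted lines mark 2-fold, and listed genes past both are named. The medians run from -0.46 for the shedding genes to 0.78 for turnover and inhibition.

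Read totals on genes ran from 34838399 to 42271299 per library. Sums of cell type markers differed between the groups without overlap, apart from acinar ones: the summed CPM of 6 epithelial genes was 3840 to 4070 in untreated and 2960 to 3170 in rhCYGB libraries, with KRT8 and KRT18 carrying the sum, KRT8 and KRT19 lower and KRT18 not past the test (edgeR adjusted p = 0.315), EPCAM at 0 in all 6 and CDH1 at or near 0. That of 4 mesenchymal genes was 7960 to 8130 and 11600 to 12100, nearly all of it VIM, with CDH2 at 0. That of 6 stellate cell or fibroblast genes, carried by COL1A2, was 148 to 159 and 11.5 to 13.6, that of 3 endothelial genes, carried by CDH5 with PECAM1 at 0, 109 to 122 and 10.5 to 13.6, and that of 4 immune genes, carried by CD68 with PTPRC and CD3E at 0, 38.4 to 42 and 70.6 to 72.7, while CD14 in that list went the other way, from 4.1 to 0.225 CPM (edgeR adjusted p 4.02e-10). Of 4 acinar genes, 3 were at 0 in every library and the sum was at most 0.156. Their part in the values of the receptors and ligands was not tested, and in bulk RNA fewer cells with a transcript and less of it per cell cannot be told apart.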

How the data were processed

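RNA-seq read counts per gene and per transcript were deposited as whole, unscaled numbers, together with FPKM values that the authors scaled to transcript length and mapped fragments. The submitters' processing notes name FastQC 0.11.7, HISAT2 2.1.0 and StringTie 2.1.3b and a mouse build, although genes and cells are human; the build of the listed positions is not given in the sources used here. The 12 deposited TPM columns were not used.

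Counts of all 6 libraries were filtered (filterByExpr) and tested with edgeR 4.0.16 (R 4.3.3; TMM factors, glmQLFit, glmQLFTest, two-sided), with Benjamini-Hochberg adjustment over all 14728 genes or 32577 transcripts. A gene was called changed at an adjusted p under 0.05 and 2-fold or more. The filter left 99.97% of counts. Alternatives were other scalings, the Wald test of DESeq2 1.42.0, limma 3.58.1 on log2(FPKM + 1) or with 0.1 as pseudocount, no filter, at least 10 counts in every library, gene counts summed from transcripts, a replicate block, no limit on the fold change, and leaving out each library in turn. On simulated counts the transcript fit called a smaller share of changed features than the gene fit.

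The members and lists were chosen with earlier results of these data known. Named were all 10 genes, every other receptor or ligand of the family, and from each list the genes called changed (at most the 6 largest). Tested transcripts holding at least 10% of their gene's counts were named as well. ERBB2 variant 3, EGFRvIII, MIEN1, the shedding genes that fell, DUSP6 and EPHA4 were named after their values were seen. Pairs of libraries within a group differed by more than counting error (chi-square over degrees of freedom 4.81 to 6.88).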

Additional observations from a re-analysis of the deposited data

How the results depend on the processing

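EREG, AREG, HBEGF and ERRFI1 kept their direction, the adjusted p and 2-fold under all 16 alternatives. Counts summed from transcripts gave these genes the same counts as the main fit, so that alternative is no separate check. The number of the 10 genes changed was 5, 4 with both limma fits on FPKM, and 5 to 6 when 1 library was left out, the sixth being TGFA without untreated library 3 or rhCYGB library 2; without a limit on the fold change it was 7. The number lower was 0 rather than 1 with limma on log2(FPKM + 1) and on log2(FPKM + 0.1). All genes changed numbered 3998 in the main fit. With limma on log2(FPKM + 1), a fit that tested 17842 genes, the number was 1994. Without the limit on the fold change it was about 11430, with 5742 higher and 5685 lower. With limma on log2(FPKM + 1), 0 of the remaining receptor and ligands and 0 of the RAS-ERK list were changed, a fit whose pseudocount lowers the fold of scarce genes. The turnover and inhibition list had 2 changed genes rather than 4 with upper-quartile factors, total counts and both limma fits. The adaptor list had 1 to 2 when 1 library was left out, 2 without rhCYGB library 2. With a replicate block, 3978 genes and 5 of the 10 were changed, and transcripts changed fell from 5517 to 3359, with 4 of the 10 genes' transcripts rather than 5; the cause was not tested. No pairing of libraries by number was seen: same-numbered ones had residual correlations of -0.0479, 0.00715 and 0.00554, and not every library correlated best with its own number. With so few libraries such correlations could miss a small shared effect. No direction that passed a test was reversed. NRG1, with 0 counts, and TGFA, with at most 11, were not resolved at this depth.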
